A study of Homo sapiens with 10 samples.

Results

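Mucins are the large, densely O-glycosylated proteins that coat epithelial surfaces. The report covers 9 mucin genes, *MUC1*, *MUC2*, *MUC4*, *MUC5AC*, *MUC5B*, *MUC12*, *MUC13*, *MUC16* and *MUC20*, of 36687 gene symbols measured. They were chosen on the RNA-seq values themselves, because *MUC5B* showed the largest rise at 48 h of dasatinib, so every difference between 48 h and 0 h is given for them as a description, without a test. The choice refers to 4122 genes with log2 CPM (counts scaled to the library total) averaging 2 or more and with both 48 h libraries above both 0 h libraries. *MUC5B* ranked 1 among these, with a log2 fold change of 6.42, and the next genes were *CST1* at 5.37 and *CST4* at 5.34, which encode salivary-type cystatins. *MUC5AC* ranked 21. Among all 15727 genes tested, without a floor on expression, 54 had a larger fitted log2 fold change than *MUC5B*.

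The cells were MDA-MB-231, an established human line of triple-negative, basal B breast cancer, and the drug was dasatinib, which blocks SRC family and ABL kinases. The 10 libraries comprise cells exposed to dasatinib (100 nM) over 6 h, 12 h, 24 h or 48 h and untreated cells (0 h), each group with 2 biological replicates. The 0 h samples served as untreated controls, in keeping with the word sham in their titles, although dasatinib is entered as their treatment. Untreated cells of the later times were not analysed here, so time in culture and drug cannot be told apart.

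Secreted gel-forming mucins polymerise into mucus after release from secretory granules, and membrane mucins carry a glycosylated ectodomain on the cell surface. *MUC5B* encodes a gel-forming mucin of airway glands, salivary glands and the cervix, *MUC5AC* that of airway and gastric surface cells, and *MUC2* that of intestinal goblet cells. *MUC1*, *MUC4*, *MUC12*, *MUC13*, *MUC16* and *MUC20* encode membrane mucins. MUC1 is the best known of them in breast tissue, where it lines the apical surface of luminal cells and is often overexpressed and mislocalised in carcinomas.

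In GRCh38 coordinates of the GENCODE annotation, the gel-forming members lie on chromosome 11 on the plus strand, within one cluster. *MUC2* spans 1074875 to 1110511, *MUC5AC* 1157953 to 1201138 and *MUC5B* 1223066 to 1262172. The gap between *MUC5AC* and *MUC5B* is 21.9 kb. *MUC1* lies on chromosome 1 (155185824 to 155192916, minus strand), *MUC12* on chromosome 7 (100969565 to 101018939, plus strand) and *MUC16* on chromosome 19 (8848844 to 9010390, minus strand). Chromosome 3 carries *MUC13* (124905442 to 124953819, minus strand), *MUC20* (195720884 to 195741123, plus strand) and *MUC4* (195746765 to 195811973, minus strand). All are annotated as protein-coding.

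RefSeq promoter windows (GRCh38.p14, 250 bases before to 50 bases after the start) were matched for 6 of the 9 members, *MUC1*, *MUC2*, *MUC4*, *MUC12*, *MUC13* and *MUC16*. Those of *MUC1*, the membrane member with the most counts, and of *MUC2*, the gel-forming member with a window, are shown 5′ to 3′ on the strand of the gene. Capitals mark the TATA box core TATAA and the GC box GGGCGG on either strand.
MUC1 promoter, chr1:155192866-155193165, minus strand: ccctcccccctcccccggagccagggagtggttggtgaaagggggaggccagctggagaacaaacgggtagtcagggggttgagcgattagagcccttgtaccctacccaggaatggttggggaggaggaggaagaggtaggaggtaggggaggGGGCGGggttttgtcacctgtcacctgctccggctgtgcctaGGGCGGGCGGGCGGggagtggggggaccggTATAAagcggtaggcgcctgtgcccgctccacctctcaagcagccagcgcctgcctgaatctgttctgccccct
MUC2 promoter, chr11:1074624-1074923, plus strand: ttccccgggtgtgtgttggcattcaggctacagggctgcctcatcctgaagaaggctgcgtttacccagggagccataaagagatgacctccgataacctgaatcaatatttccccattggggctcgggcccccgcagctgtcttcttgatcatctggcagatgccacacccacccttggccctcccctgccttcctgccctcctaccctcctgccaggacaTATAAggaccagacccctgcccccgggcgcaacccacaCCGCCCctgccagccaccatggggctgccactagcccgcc
Both windows held TATAA, with its first base at -24 in *MUC1* and at -28 in *MUC2* from the annotated start. *MUC1* held 4 GC boxes, of which those at -54 and -50 overlap, as do those at -50 and -46, and *MUC2* held 1 on the opposite strand at position 11. Among 35116 promoter windows of the same length, 20.4% held TATAA and 45.0% held GGGCGG on either strand. The E-box CACGTG (7.26% of windows), the CRE TGACGTCA (1.85%) and the forkhead letters TGTTTAC (3.42%) had no match in either window, and the TEAD letters CATTCC (14.0%) had 1 in that of *MUC1*. These matches are a description of letters, not of bound sites.

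The libraries held between 40942913 and 49133774 gene counts. Replicate 1 of 12 h stood apart, since its closest correlation with another library was 0.955 (log2 CPM), against 0.983 to 0.987 for the other libraries. Ribosomal protein genes took 3.77% of its counts and 4.68% to 6.66% elsewhere. Markers fitted the label of a basal B line in part. *VIM* was at 633 to 913 TPM (a level corrected for transcript length and library total) and *AXL* at 288 to 790 TPM, with *ESR1* at or below 0.144 TPM, *PGR* at 0 and *CDH1* at or below 0.133 TPM. The other luminal markers were present, with *KRT19* at 150 to 262 TPM, *GATA3* at 8.49 to 16.0 TPM and *EPCAM* at 4.80 to 10.2 TPM. Of 15727 genes that passed the filter on low counts, 5 were members (*MUC1*, *MUC2*, *MUC5AC*, *MUC5B* and *MUC12*). Tests are edgeR's quasi-likelihood test in 1 fit over all libraries, with Benjamini-Hochberg adjustment over these genes and a threshold of 0.05 on the adjusted p. CPM values are scaled by TMM.

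*MUC5B* RNA stood higher at each successive time. The 2 libraries of each time held 982 and 952 counts at 0 h, 1563 and 1941 at 6 h, 4566 and 3000 at 12 h, 19097 and 19652 at 24 h, then 97126 and 84050 at 48 h. On the CPM scale the libraries stood at 23.4 and 21.8 at 0 h, 36.3 and 43.4 at 6 h, 109 and 65.7 at 12 h, 380 and 447 at 24 h, then 1984 and 1906 at 48 h. No 2 times overlapped. The means were 22.6 ± 1.13, 39.9 ± 5.05, 87.2 ± 30.3, 413 ± 47.2 and 1945 ± 54.8 CPM (SD, n = 2 each). *MUC5B* took 0.198% and 0.194% of all counts at 48 h, against 0.00225% and 0.00209% at 0 h. In bulk RNA, more cells that express a gene and more of its RNA per cell cannot be told apart, nor can fewer cells and less RNA per cell.

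**Figure D1:**
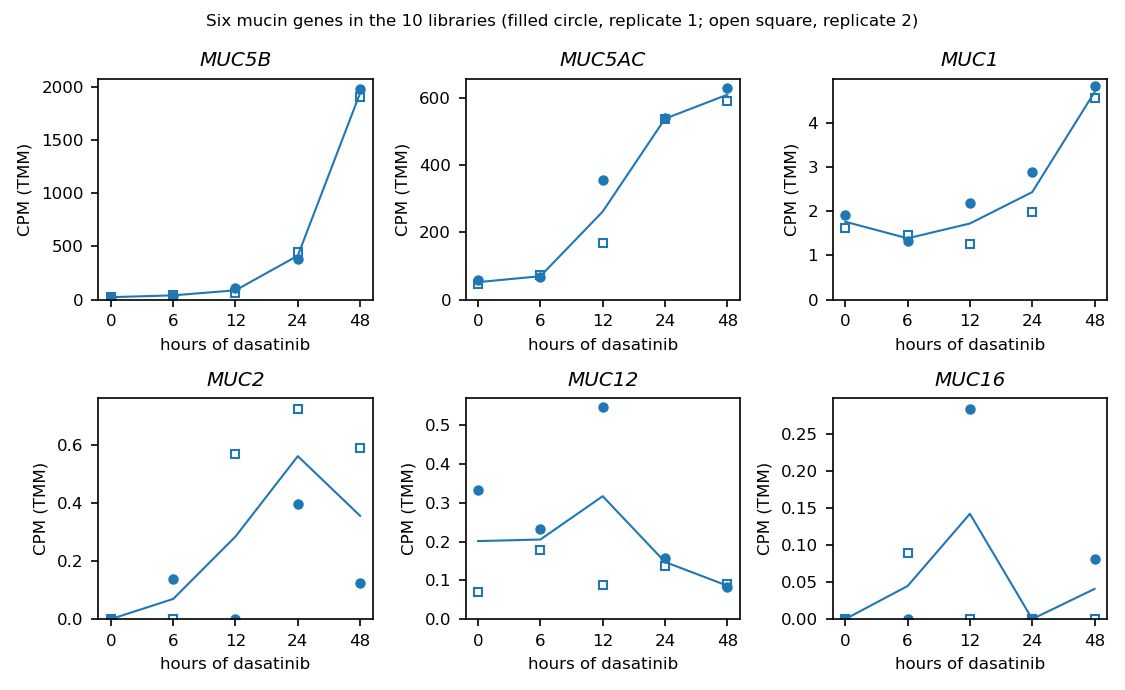
TMM-scaled CPM of 6 mucin genes (vertical axes, one scale per panel) at 0, 6, 12, 24 and 48 h of dasatinib (horizontal axis, times evenly spaced). Filled circles are replicate 1, open squares replicate 2 and lines join the means. *MUC5B* reached 1984 and 1906 CPM at 48 h and *MUC5AC* 629 and 591, while *MUC2*, *MUC12* and *MUC16* stayed below 1 CPM in every library.

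The means of 24 h and 6 h hold no library of the contrast behind the choice of genes. The standard error and adjusted p draw on the spread of all libraries, those of 0 h and 48 h included. *MUC5B* was higher at 24 h by 3.37 on the log2 scale (SE 0.226, edgeR adjusted p = 3.51e-05), a 10.4-fold difference, and both 24 h libraries lay above both 6 h libraries. With edgeR on 6, 12 and 24 h alone the difference was 3.37 (SE 0.266, adjusted p = 0.00423). The step between 6 and 12 h was 1.13 (SE 0.210, adjusted p = 0.0497) and that between 12 and 24 h was 2.25 (SE 0.216, adjusted p = 0.000886). The first of these was 0.72 without 12 h replicate 1 and 1.45 without replicate 2, which both passed. It missed the threshold on leaving out each of the other 8 libraries, where the share of all genes called fell as well. With only the 6 h and 12 h libraries in the edgeR fit it also missed (adjusted p = 0.615), and that fit called 0.0% of all genes.

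Comparisons with 0 h share their control libraries with the contrast of the choice. *MUC5B* stood 0.82 above 0 h at 6 h on the log2 scale (SE 0.211, edgeR adjusted p = 0.0780), which did not pass. It passed in edgeR with no filter (adjusted p = 5.93e-06) and with DESeq2 on all libraries (adjusted p = 0.00701). On the 2 groups alone it passed with edgeR (adjusted p = 0.000174) and DESeq2 (adjusted p = 2.36e-08), beside 19.0% and 18.6% of all genes. With limma, the replicate block and DESeq2-type size factors it did not pass. The value was again 0.82 without either 12 h library. *MUC5B* was higher by 1.94 at 12 h (SE 0.216, edgeR adjusted p = 0.00115) and by 4.19 at 24 h (SE 0.236, adjusted p = 1.73e-05). The largest value, 6.42 at 48 h (SE 0.261), is the one that led to the choice and is an 85.9-fold difference. Between 48 and 24 h the difference was 2.24 (SE 0.215), given without a test.

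*MUC5AC*, the neighbouring gel-forming mucin, rose with another time course. Its libraries held 2444 and 1987 counts at 0 h, 2849 and 3261 at 6 h, 14922 and 7723 at 12 h, 27146 and 23626 at 24 h, then 30787 and 26042 at 48 h. In CPM these were 58.3 and 45.6, 66.2 and 73.0, 355 and 169, 540 and 537, and 629 and 591 at the same times in order. The 12 h libraries differed from each other more than those of any other time. Most of the increase was reached by 24 h, where the mean was 538 ± 2.18 CPM, against 69.6 ± 4.83 CPM at 6 h (SD, n = 2 each).

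At 24 h, *MUC5AC* was higher than at 6 h by 2.95 on the log2 scale (SE 0.290, edgeR adjusted p = 0.000201), 7.74-fold. It was higher at 12 h than at 6 h by 1.91 (SE 0.279, adjusted p = 0.0345) and at 24 h than at 12 h by 1.04 (SE 0.271, adjusted p = 0.0461). Their sizes depend on the 12 h libraries, with values of 1.28 and 1.67 without 12 h replicate 1 and of 2.35 and 0.60 without replicate 2, which all passed. The calls were lost on leaving out each of the other 8 libraries and with limma, under 13 of 20 alternatives for the first step and 15 for the second. With only the 2 groups of the step in the edgeR fit both were lost as well (adjusted p up to 0.615 for the first and 0.390 for the second over the alternatives that keep all libraries of the step). Each of these edgeR fits on 2 groups called 0.0% of all genes. Against 0 h, *MUC5AC* differed by 0.42 at 6 h (SE 0.272, adjusted p = 0.517), 2.33 at 12 h (SE 0.283, adjusted p = 0.00166) and 3.37 at 24 h (SE 0.295, adjusted p = 9.25e-05). The 6 h value passed on the 2 groups alone with edgeR (adjusted p = 0.0134) and DESeq2 (adjusted p = 0.00488), beside 19.0% and 18.6% of all genes. It did not pass in the other alternatives that keep all libraries, and was again 0.42 without either 12 h library. The log2 fold change at 48 h was 3.55 (SE 0.298), with no test, and that between 48 and 24 h was 0.18 (SE 0.268), smaller than its standard error.

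The order of the gel-forming mucins turned between 24 and 48 h. Per transcript length, *MUC5B* stood at 4.28 and 4.04 TPM at 0 h, 6.79 and 7.74 at 6 h, 22.3 and 12.5 at 12 h, 72.4 and 89.5 at 24 h, then 376 and 376 at 48 h. *MUC5AC* stood at 11.3 and 9.0 TPM at 0 h, 13.2 and 13.9 at 6 h, 77.6 and 34.3 at 12 h, 110 and 115 at 24 h, then 127 and 124 at 48 h. *MUC5AC* was thus the more abundant RNA in each library of 0 to 24 h and *MUC5B* in both libraries of 48 h.

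The ratio of *MUC5B* to *MUC5AC* TPM within a library was 0.377 and 0.449 at 0 h, 0.515 and 0.558 at 6 h, 0.287 and 0.364 at 12 h, 0.660 and 0.780 at 24 h, then 2.96 and 3.03 at 48 h. The 12 h ratios were below those of every other time, and this held in both 12 h libraries, the one that stood apart and the other. Ranked by TPM among all genes, *MUC5B* was at position 264 and 265 at 48 h, against 10218 and 10370 at 0 h, and *MUC5AC* at 1119 and 1175 against 7956 and 8613. The TPM lengths implied by the files were close, that of *MUC5AC* being 0.938 of that of *MUC5B*. Both genes have long repeat-rich central exons, and the sources used here do not say how reads mapping to several places were counted.

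**Figure D2:**
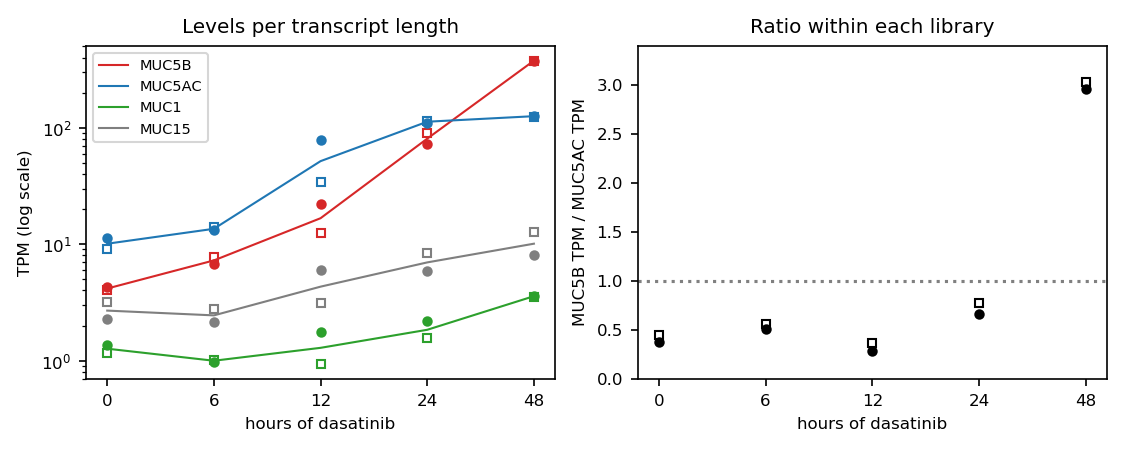
Left, TPM of *MUC5B*, *MUC5AC*, *MUC1* and *MUC15* on a log axis against hours of dasatinib (evenly spaced), with filled circles for replicate 1, open squares for replicate 2 and lines through the geometric means. Right, the ratio of *MUC5B* to *MUC5AC* TPM in each library, with a dotted line at 1, which only the 48 h libraries (2.96 and 3.03) passed.

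*MUC1*, the membrane mucin, was expressed at a low level throughout. It had 80 and 70 counts at 0 h, 57 and 65 at 6 h, 92 and 57 at 12 h, 145 and 87 at 24 h, then 236 and 201 at 48 h. In CPM its means were 1.76 ± 0.215, 1.39 ± 0.0928, 1.72 ± 0.664, 2.43 ± 0.641 and 4.69 ± 0.185 (SD, n = 2 each). The 48 h libraries lay above all others, and the 12 h libraries overlapped with those of 0, 6 and 24 h. At 24 h the difference from 6 h was 0.81 on the log2 scale (SE 0.344, edgeR adjusted p = 0.138), which did not pass. It passed without 12 h replicate 1 (adjusted p = 0.0373) or replicate 2 (adjusted p = 0.0351). The difference from 0 h was 0.47 at 24 h (SE 0.340, adjusted p = 0.388) and, as a description, 1.41 at 48 h (SE 0.340). Even at 48 h *MUC1* had 3.60 and 3.55 TPM, against 376 TPM of *MUC5B* in each of the same libraries.

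The remaining members were at the limit of detection. *MUC2* had 0 counts in both 0 h libraries, 6 and 0 at 6 h, 0 and 26 at 12 h, 20 and 32 at 24 h, then 6 and 26 at 48 h. Its replicates disagreed by up to the whole of the signal, and it passed the filter only through later libraries. Pooled over the libraries of a time, *MUC2* under drug ran from 0.0666 CPM (6 h) to 0.573 CPM (24 h). The floor for the 0 h group, taken as 3 counts, was 0.0336 CPM. That floor leaves out the error of the later counts, so no smallest fold change is given. The difference between 24 and 6 h was 2.97 on the log2 scale (SE 1.77, edgeR adjusted p = 0.295) and ran from 1.99 to 7.67 with a library left out. Since the later libraries carried the gene through the filter, nothing is read from this test.

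*MUC12*, an intestinal membrane mucin, had 14 and 3 counts at 0 h, 10 and 8 at 6 h, 23 and 4 at 12 h, 8 and 6 at 24 h, then 4 and 4 at 48 h, with a difference of -0.47 between 24 and 6 h (SE 1.14, edgeR adjusted p = 0.829). Its antisense transcript *MUC12-AS1* overlaps it and had 0 to 23 counts, and reads of the strands cannot be told apart because the sources used here do not give the strand setting. *MUC13*, a membrane mucin of the gut, had 6 and 2 counts at 48 h and 0 in the other 8 libraries. *MUC16*, which encodes a large ocular and ovarian membrane mucin, had 4 counts in a 6 h library, 12 in 12 h replicate 1, 4 in a 48 h library and 0 in the rest. *MUC4* and *MUC20*, membrane mucins known to pair with receptor kinases, had 0 counts in all 10 libraries, where a count of 0 allows 0.0611 to 0.0733 CPM per library. Of counts from 1 to 10 over all genes, 70.8% to 77.6% per library were even, and whether both mates of a read pair were counted was not tested. Such limits cover counting error only.

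Over all members, none of the 5 tested passed at 6 h against 0 h, where edgeR called 2.73% of all genes tested. At that time *MUC5B* alone had an unadjusted edgeR p under 0.05 (0.00308). Between 0 and 2 members passed over the other tools and settings that keep all libraries, beside 0.806% to 19.0% of all genes. At 12 h against 0 h 2 passed (background 7.15%) and at 24 h against 0 h 2 (background 20.0%). Between 12 and 6 h 2 passed (background 0.725%), between 24 and 12 h 2 (background 7.58%) and between 24 and 6 h 2 (background 18.6%). In each case the called members were *MUC5B* and *MUC5AC*, and all were higher at the later time. At 48 h against 0 h, the contrast behind the choice, 3 were past the threshold beside 32.3% of all genes, and nothing is read from that count.

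Of the genes tested near *MUC5B*, none other than *MUC5AC* and the sparsely counted *MUC2* differed by more than 1 on the log2 scale between 24 and 6 h. Of 53 genes annotated within 500 kb, 39 were in the table and 24 were tested. At 24 h against 6 h *MUC5AC* was higher and 2 were lower. These were *PIDD1*, of the PIDDosome, at -0.83 (SE 0.136, edgeR adjusted p = 0.00248) and *CHID1*, a chitinase-domain gene, at -0.40 (SE 0.120, adjusted p = 0.0426), 413 and 308 kb from *MUC5B*. These 3 calls stood beside 18.6% of all genes. Only 2 neighbours were called with the replicate block and with limma, and 14 with edgeR on the 2 groups alone (beside 43.6% of all genes). The number fell on leaving out each library of 0, 6, 24 or 48 h and rose with either 12 h library left out. The share of all genes called moved likewise. At 24 h against 0 h 3 neighbours were higher and 0 lower, beside 20.0% of all genes. These were *MUC5AC*, *PNPLA2* (0.64, SE 0.151, edgeR adjusted p = 0.0144) and *CTSD* (1.27, SE 0.395, adjusted p = 0.0475). At 48 h against 0 h 4 were higher and 3 lower, beside 32.3%.

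*TOLLIP*, an adaptor of Toll-like receptor signalling that lies 12.2 kb beyond *MUC5B*, had 78.8 and 83.8 CPM at 24 h, against 79.3 and 83.7 CPM at 6 h. The 2 times overlapped (log2 difference -0.00, SE 0.124, edgeR adjusted p = 0.989). Against 0 h (68.5 and 64.5 CPM) *TOLLIP* was higher by 0.29 at 24 h (SE 0.124, adjusted p = 0.136), which did not pass, and by 0.49 at 48 h (SE 0.124). Its divergent transcript *TOLLIP-DT*, 47.6 kb away, had 0 to 14 counts. Within the *MUC5B* span, the antisense transcript *MUC5B-AS1* had 0 counts in every library and the microRNA gene *MIR6744* 0 or 1. *MUC6*, the gastric gland mucin gene at the far end of the cluster, had 0 counts in every library.

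**Figure D3:**
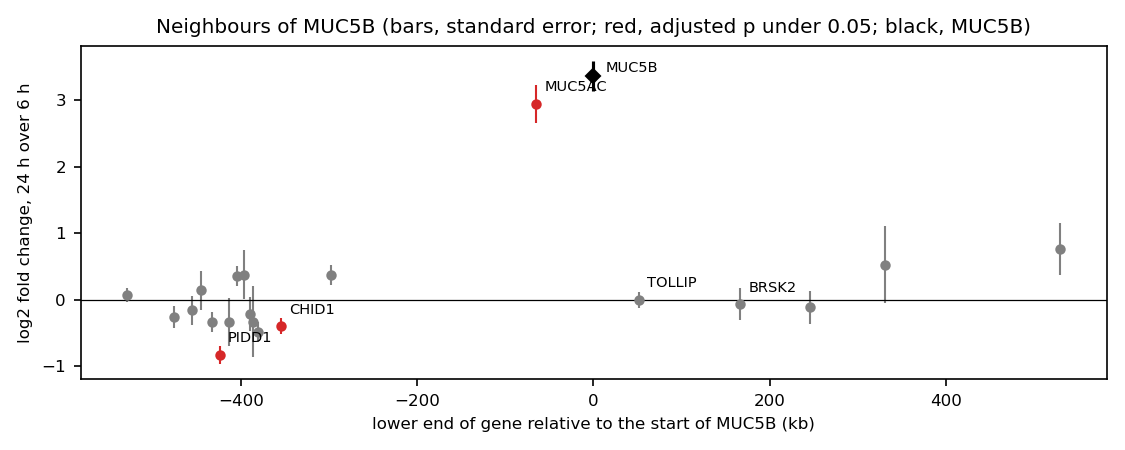
Log2 fold change of 24 h over 6 h (vertical axis, bars show the standard error) for genes tested within 500 kb of *MUC5B*, by the distance of their lower genomic coordinate from the start of *MUC5B* in kb. *MUC2* and other sparsely counted neighbours with a standard error above 1 are left out. The black diamond is *MUC5B* (3.37) and red marks adjusted p under 0.05, which *MUC5AC*, *PIDD1* and *CHID1* reached. *TOLLIP*, the nearest gene downstream, stood at -0.00.

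Other genes of mucin type were followed in a list of 16, of which 15 were in the table and 5 were tested. At 24 h against 6 h 3 were higher and 1 was lower, beside 18.6% of all genes called, and the median log2 fold change was 0.67, against 0.0136 over all genes tested. *MUC15*, a membrane mucin that is not among the 9, had 5.91 and 8.0 CPM at 24 h, against 2.23 and 3.0 CPM at 6 h (log2 1.41, SE 0.344, edgeR adjusted p = 0.0177). The call was lost on leaving out each of these 4 libraries in turn, with an adjusted p of up to 0.147. *PODXL*, the sialomucin podocalyxin, had 237 and 239 CPM at 24 h, against 144 and 155 at 6 h (0.67, SE 0.107, adjusted p = 0.00222), and reached 551 and 548 at 48 h. *CD164*, the sialomucin endolyn, was higher by 0.74 (SE 0.138, adjusted p = 0.00456), while its difference from 0 h at 24 h did not pass (0.25, SE 0.137, adjusted p = 0.236). *MCAM*, an immunoglobulin-family adhesion molecule once named as a mucin, was lower by 0.75 (log2 fold change -0.75, SE 0.116, adjusted p = 0.00195). *MUC15* overlaps *ANO3* on the opposite strand, which had 8 to 126 counts.

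Genes of mucin O-glycosylation changed in few cases at 24 h against 6 h. Of 35 listed, 27 were tested, 2 were higher and none was lower, beside 18.6% of all genes called, with a median of 0.111. *GALNT5*, one of the transferases that start O-glycan chains, had 67.1 and 68.8 CPM at 24 h, against 27.9 and 30.0 at 6 h (1.23, SE 0.121, edgeR adjusted p = 0.000201). *GALNT10*, of the same family, had 365 and 359 CPM, against 207 and 219 (0.77, SE 0.118, adjusted p = 0.00194). At 48 h against 0 h 8 were higher and 1 was lower (median 0.47, against 0.0103 over all genes), beside 32.3% of all genes called. With either 12 h library left out, more were called at 24 h against 6 h, as over all genes.

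Mucus proteins and secretory cell genes were tested for 8 of 22 listed, the rest being too low. At 24 h against 6 h 2 were higher and 1 was lower (median 0.505), beside 18.6% of all genes called. At 24 h against 0 h 5 were higher and none was lower (median 1.40, against 0.0212 over all genes), beside 20.0% of all genes called. *AGR2*, a disulphide isomerase of the endoplasmic reticulum needed for MUC2 production in mice, had 56.4 and 55.0 CPM at 24 h, against 12.1 and 10.9 CPM at 6 h. It was higher by 2.27 (SE 0.191, edgeR adjusted p = 9.83e-05), while its 12 h libraries, 9.80 and 15.4 CPM, spanned those of 6 h and 0 h. *FCGBP*, a mucin-associated protein, was higher by 2.78 (SE 0.475, adjusted p = 0.00309) at no more than 5.49 CPM. *DMBT1*, a mucosal scavenger protein, was lower at 24 h than at 6 h (log2 fold change -1.16, SE 0.178, adjusted p = 0.00192) and higher than at 0 h by 1.37 (SE 0.188, adjusted p = 0.000909).

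**Figure D4:**
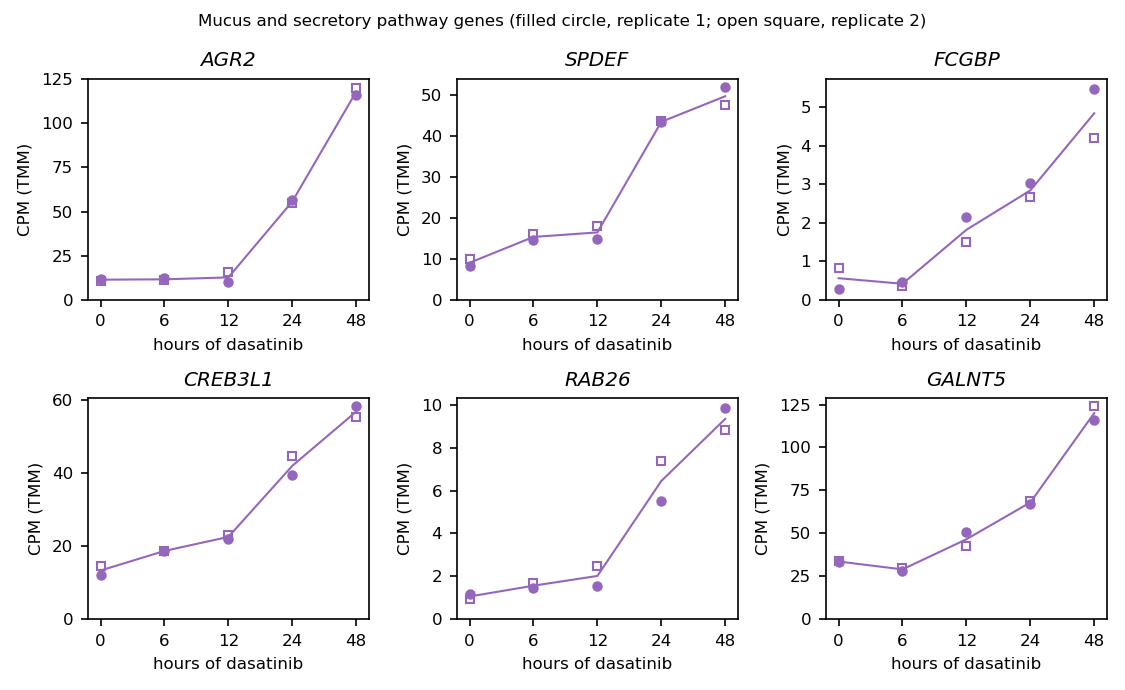
TMM-scaled CPM of *AGR2*, *SPDEF*, *FCGBP*, *CREB3L1*, *RAB26* and *GALNT5* (vertical axes, one scale per panel) at 0 to 48 h of dasatinib (evenly spaced), with filled circles for replicate 1, open squares for replicate 2 and lines through the means. These genes were drawn from those called higher at 24 h than at 6 h, so the rise between these times reflects that choice. Genes of the same lists that were called lower, such as *DMBT1* and *FOXM1*, are not drawn here. *AGR2* had 56.4 and 55.0 CPM at 24 h.

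Transcription factors known to act on mucin or goblet cell genes were tested for 25 of 34. At 24 h against 6 h 7 were higher and 1 was lower (median 0.142), beside 18.6% of all genes called, and at 24 h against 0 h 6 were higher and 3 lower (median -0.00263), beside 20.0%. *SPDEF*, a factor of goblet cell differentiation in mice, had 8.16 and 9.82 CPM at 0 h, 14.5 and 16.1 at 6 h, 14.8 and 18.0 at 12 h, 43.3 and 43.5 at 24 h, then 51.8 and 47.5 at 48 h. It was higher at 24 h than at 6 h by 1.51 (SE 0.151, edgeR adjusted p = 0.000219). *CREB3L1*, a membrane-bound factor of secretory cells, was higher by 1.17 (SE 0.138, adjusted p = 0.000494), with 39.4 and 44.5 CPM at 24 h, against 18.6 and 18.7 CPM at 6 h.

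*EGR1*, an immediate early factor and not specific to mucins, had 126 and 152 CPM at 24 h, against 45.3 and 45.8 CPM at 6 h (1.61, SE 0.122, edgeR adjusted p = 5.08e-05). Its 0 h libraries, 181 and 170 CPM, lay above both, and so the difference from 0 h at 24 h was -0.34 (SE 0.119, adjusted p = 0.0743). *FOXM1*, a cell cycle factor that also acts in airway goblet cells of mice, was lower at 24 h than at 6 h (log2 fold change -0.68, SE 0.123, adjusted p = 0.0042). The other 4 called factors, *FOXA2* (0.60), *XBP1* (0.57), *FOS* (1.61) and *ELF3* (3.97), are named after their values were seen. *ELF3* had only 0.163 and 0.0448 CPM at 6 h. At 24 h against 0 h, *ELF3* (1.68, SE 0.633, adjusted p = 0.093) and *FOS* (-0.0, SE 0.187, adjusted p = 0.996) did not pass. *FOXA2* (0.64, SE 0.112, adjusted p = 0.00338) and *XBP1* (0.39, SE 0.0958, adjusted p = 0.0168) did.

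Genes of mucin granule exocytosis were tested for all 25 listed. At 24 h against 6 h 5 were higher and 3 were lower (median 0.146), beside 18.6% of all genes called. The small GTPase gene *RAB26*, which acts in granule maturation, was higher by 2.04 (SE 0.292, edgeR adjusted p = 0.00129), *MARCKSL1* by 1.34 (SE 0.225, adjusted p = 0.00279) and *SYTL2*, a granule tether, by 0.70 (SE 0.135, adjusted p = 0.00572). *HSPA8*, a general chaperone, was lower (-0.83, SE 0.121, adjusted p = 0.0015), as were the tether *SYTL4* (-0.92, SE 0.164, adjusted p = 0.00383) and the SNARE *STX3* (-0.42, SE 0.117, adjusted p = 0.0314). The called genes of the list thus lay in both directions. At 24 h against 0 h *SYTL2* (0.38, SE 0.134, adjusted p = 0.0718) and *STX3* (-0.26, SE 0.117, adjusted p = 0.156) did not pass. *RAB26*, *MARCKSL1*, *HSPA8* and *SYTL4* passed there in the same direction as against 6 h. Among 18 tested of 20 membrane mucin partners and sheddases, 2 were higher and 1 was lower (median 0.156), a share near the 18.6% over all genes. *ICAM1*, an adhesion ligand of MUC1, had 4.56 and 5.59 CPM at 24 h, against 1.14 and 1.12 CPM at 6 h (2.16, SE 0.262, adjusted p = 0.000552). *ERBB3* was higher by 1.03 (SE 0.201, adjusted p = 0.00613) and the proprotein convertase gene *FURIN* lower (-0.60, SE 0.127, adjusted p = 0.00936). At 24 h against 0 h *FURIN* did not pass (-0.07, SE 0.126, adjusted p = 0.746), while *ERBB3* (0.74, SE 0.199, adjusted p = 0.0259) and *ICAM1* (2.35, SE 0.266, adjusted p = 0.000331) did. Counts in most of these lists depended on single libraries. With either 12 h library left out, the share of all genes called at 24 h against 6 h rose. The called genes of these lists then rose in number, except among the other mucins, where the number stayed the same. With a 6 h or 24 h library left out, they fell to as few as 6 among the transcription factors, 4 among the exocytosis genes, 1 among the partners and sheddases and 2 among the other mucins, beside 7.15% to 8.25% of all genes.

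**Figure D5:**
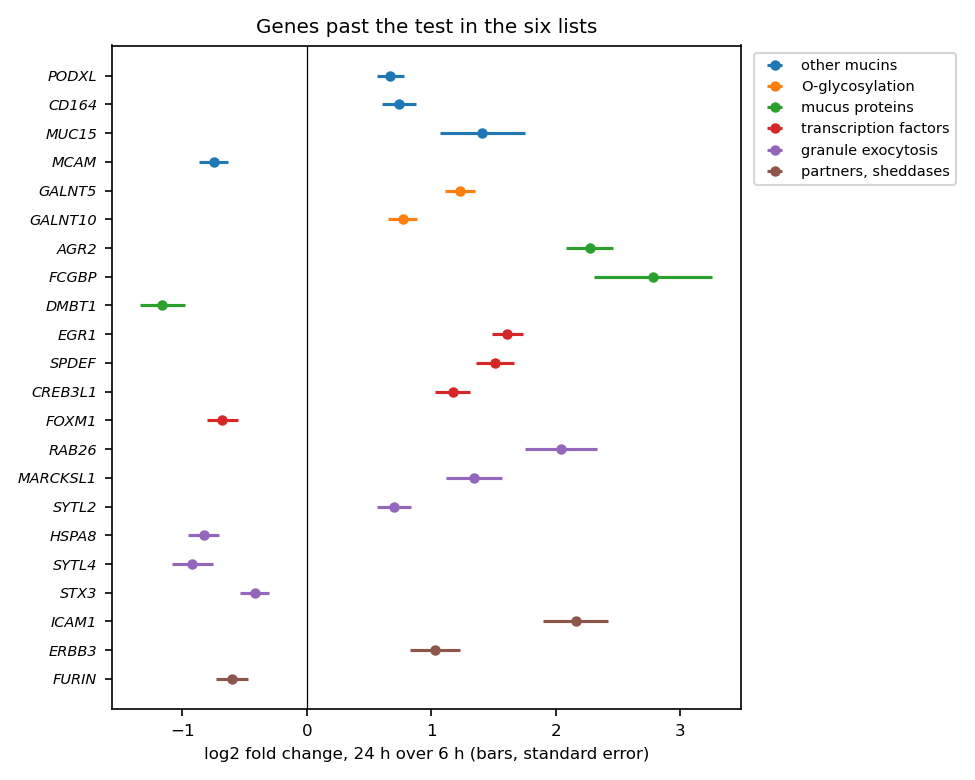
Log2 fold change of 24 h over 6 h (horizontal axis, bars show the standard error) for up to 3 genes per direction and list, those of smallest adjusted p, coloured by list. *FCGBP* stands at 2.78 and *DMBT1* at -1.16, and *ELF3*, which that rule does not take, is not drawn.

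Some of these genes are also markers of mucous and club secretory cells, and the sum of these markers, like *MUC5B*, was highest at 24 and 48 h. Their part in the result was not tested. The summed TPM of 10 such markers was 33.7 to 35.8 without drug, 48.0 to 49.7 after 6 h, 49.4 to 58.3 after 12 h, 165 to 173 after 24 h and 257 to 271 after 48 h. The sum came from *AGR2* (13.1 to 160 TPM over all libraries), *SPDEF* (14.5 to 95.3 TPM) and *TFF3* (4.19 to 19.3 TPM), whereas the defining genes *SCGB1A1*, *BPIFA1* and *BPIFB1* were at 0 in every library. *SCGB3A1*, *ITLN1* and *CLCA1* were at or below 0.678 TPM. Luminal markers summed to 246 to 260, 168 to 174, 176 to 182, 244 to 256 and 269 to 278 TPM at the same times in order.

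The genes whose log2 CPM followed that of *MUC5B* most closely over the 10 libraries, among 10981 genes averaging 2 or more on that scale, were *SPRED2* (Pearson's r = 0.993), *FN1* (0.9926), *THEMIS2* (0.9922), *SATB1* (0.9911), *ITFG1* (0.9909) and *JCAD* (0.9908). These are a description, since all genes share the libraries and the time course. *FN1*, which encodes fibronectin, had 1301 and 1345 CPM at 48 h, against 334 and 322 CPM at 0 h. *MUC15* was at r = 0.934 (rank 362) and *MUC5AC* at r = 0.922 (rank 458). Of the 6 genes, 1 (*SATB1*) stayed among the closest 6 without 12 h replicate 1 and 2 (*FN1* and *THEMIS2*) on log2(TPM + 1).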

How the data were processed

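RNA-seq of 10 MDA-MB-231 libraries was analysed. According to the study's methods and the submitters' processing notes, reads were checked with FastQC and MultiQC, trimmed with Trim Galore, aligned to hg38 with STAR 2.5.2b and counted with featureCounts. The authors deposited raw counts and TPM per gene symbol. The gene annotation, the strand setting and the step to TPM are not given in the sources used here. The dose comes from a figure legend of the study, as the labels state none. Replicates are those the labels call biological.

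Counts were fitted in R 4.3.3 with edgeR 4.0.16 (filterByExpr by group, TMM, robust quasi-likelihood, 1 mean per time), and the standard error is the size of the log2 fold change divided by the root of F. TPM served for levels between genes. Alternatives were no filter, DESeq2-type size factors, DESeq2 1.42.0, fits on 2 groups, the replicate block, limma 3.58.1 on log2(TPM + 1) or log2(TPM + 0.1), and each library left out. The script was tested on simulated data. Same-numbered replicates did not deviate together (correlations of -0.0368 to 0.104), so the numbers were not taken as pairs. Coordinates are from GENCODE.

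Members, lists and tests were chosen with earlier results of these data known. Named genes are all members, from each list the up to 3 higher and 3 lower genes of smallest adjusted p between 24 and 6 h, the 6 genes most like *MUC5B*, its neighbours within 100 kb or called within 500 kb, and measured genes overlapping a member. *MUC1* and *MUC20* are also overlapped on the same strand by annotated genes that were not measured, a protein-coding gene and *MUC20-OT1* in that order.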

Additional observations from a re-analysis of the deposited data

Results flagged for a closer look

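The difference from 0 h, in which drug and time in culture cannot be told apart, was not the same at 24 h and 6 h for 3 mucin genes, by a test of the difference itself (edgeR). It was larger at 24 h by 3.37 on the log2 scale for *MUC5B* (SE 0.226, adjusted p = 3.51e-05), by 2.95 for *MUC5AC* (SE 0.290, adjusted p = 0.000201) and by 1.41 for *MUC15* (SE 0.344, adjusted p = 0.0177). Both 24 h libraries lay above both 6 h libraries for each of the 3. Since the 0 h level cancels out, these are the 24 h against 6 h comparisons given above. *MUC15* is not among the members, and its call depended on the setting. It was lost with limma on log2(TPM + 1) without the filter (1.21, adjusted p = 0.0775). With edgeR on 6, 12 and 24 h alone it was lost as well (1.41, adjusted p = 0.0558).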

How the results depend on the processing

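The 24 h against 6 h differences of *MUC5B* and *MUC5AC* kept their direction and passed under all 20 alternatives each. For *MUC5B* they ran from 3.25 to 3.51 with a library left out and from 3.30 to 3.46 otherwise (adjusted p up to 0.00423). The 12 h against 6 h step of *MUC5B* (1.13) lost its call with the replicate block (1.12, adjusted p = 0.0589), edgeR on the 2 groups alone (1.13, adjusted p = 0.615), DESeq2 on the 2 groups alone (1.14, adjusted p = 0.119), limma on log2(TPM + 1) (1.10, adjusted p = 0.0923, or 0.172 with no filter), log2(TPM + 0.1) (1.19, adjusted p = 0.0898), edgeR on 6, 12 and 24 h alone (1.13, adjusted p = 0.324) and 8 of 10 left-out libraries (range over all 10 from 0.72 to 1.45). The 24 h against 12 h step (2.25) lost it with edgeR on the 2 groups alone (2.24, adjusted p = 0.235), and ran from 1.92 to 2.65 with a library left out. At either step edgeR on the 2 groups alone called 0.0% of all genes, against 0.725% and 7.58% in the main fit. At 12 h against 6 h, edgeR on 6, 12 and 24 h alone called 0.0% as well.

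Members called at 24 h against 6 h were 4 with edgeR on the 2 groups alone and 2 to 4 with a library left out. At 6 h against 0 h they were 1 with no filter, 1 with DESeq2 on all libraries, 2 with edgeR and 2 with DESeq2 on the 2 groups alone, and 0 to 2 with a library left out. At 12 h against 0 h they were 0 with edgeR on the 2 groups alone and 2 to 3 with a library left out, and at 24 h against 0 h 2 to 3. The 48 h against 0 h value of *MUC5B* was 6.19 on log2(TPM + 1), with or without the filter, and 6.37 to 6.48 with a library left out. The share of all genes called at 24 h against 6 h rose with either 12 h library left out and fell with any other library left out. The replicate block changed no other member's call. Genes closest to *MUC5B* kept 1 of 6 without 12 h replicate 1 and 2 of 6 on log2(TPM + 1). The cause of these changes was not tested. Chosen after seeing the data were the alternatives for *MUC15*, the lists, the neighbours, single members against 0 h, the *MUC5AC* steps and the members between 48 and 24 h, and the fit on 6, 12 and 24 h alone for the single steps of *MUC5B*. For the members at 24 h against 6 h that fit was planned. With 2 libraries per time, a library left out leaves a time with 1, assumed to vary like the others. Few counts limit *MUC2*, *MUC12*, *MUC13* and *MUC16*.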
